A study of Homo sapiens with 6 samples.

Results

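The genes described here encode the machinery of store-operated calcium entry and of the calcium stores it refills. They are 10 of the 39012 genes in the deposited table, taken by symbol: the channel subunits ORAI1, ORAI2 and ORAI3, the calcium sensors STIM1 and STIM2, the release channels ITPR1, ITPR2 and ITPR3, and the store pumps ATP2A2 and ATP2A3. They were chosen by function and not by a measured value. Their transcripts were measured by RNA-seq in Jurkat, a human T cell leukaemia line that the labels also call ouabain-induced. The SCML4 group holds 3 libraries of cells with stable overexpression of SCML4, which belongs to the Polycomb proteins. The EV group holds 3 libraries of control cells, named EV in the labels. All 6 cultures, controls included, received PMA at 100 ng/ml with ionomycin at 1 µM for 6 h, so no resting cells were compared. The sources used here do not give the promoter of the construct, nor whether a line was 1 clone or a pool, nor whether replicates were grown apart. All p-values therefore rest on a spread between libraries that may be technical.

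A T cell keeps calcium in its endoplasmic reticulum, filled by the SERCA pumps that the ATP2A genes encode. Receptor signalling makes IP3, which opens the ITPR channels and lets the stored calcium out. STIM proteins in the reticulum membrane sense the empty store and open ORAI channels in the plasma membrane, and the calcium that enters drives calcineurin and the NFAT factors. Ionomycin, a calcium ionophore, empties the store and brings calcium into the cell without the receptor, and PMA acts in place of diacylglycerol.

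All 10 genes were detected in every library, and none differed between SCML4 and EV cells beyond the test's threshold. Levels are given as CPM, reads out of every 1000000 of a library, with the reads recovered from the steps of the deposited FPKM. The comparison, SCML4 minus EV on log2(CPM + 1), was made by limma-trend over 14160 genes, those averaging 10 reads or more, a filter that all 10 passed. At an adjusted p under 0.05, 0 of the 10 were called, where 1 of all genes tested was called (0.00706%), SCML4 itself. At an unadjusted p under 0.05 there were again 0 of the 10, where 5.27% of all genes passed. A limma-voom fit of the same reads also had 0 at either threshold. Of the 10 differences 7 were positive and 3 negative, with a median of 0.06 in log2 beside a median of 0.0079 over all genes tested. The smallest adjusted p was 0.866, and it was shared by ORAI1, ORAI2, STIM1, ITPR2 and ITPR3 in limma-trend. In 4 of the 10 the values of the groups did not overlap, which was so for 11.6% of all genes. In ORAI2 and ITPR1 the SCML4 libraries were all higher (6.29% of all genes), and in ITPR3 and ATP2A2 they were all lower (5.36% of all genes).

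The SCML4 gene stood at 62.9, 63.6 and 56.5 CPM in SCML4 cells and at 0.727, 0.223 and 0.103 CPM in EV cells, so the targeted gene followed the labels. Libraries held 8953671 to 10336597 reads. Each of 11 T cell genes checked had a mean of at least 10 reads, with sums of 3516 to 3618 CPM in SCML4 and 3257 to 3475 CPM in EV. Of other cell types' genes, myeloid sums were at most 0.934 CPM, with LYZ at 0 reads in all libraries, and erythroid sums at most 0.413 CPM, with HBB at 0. Fibroblast sums were 1.45 to 2.23 CPM in SCML4 and 1.66 to 2.68 CPM in EV, with 4 of 5 genes at 0, and epithelial sums were 1.10 to 1.68 CPM in SCML4 and 0.519 to 1.24 CPM in EV, with 3 of 5 at 0. B cell sums were 30.7 to 33.0 CPM in SCML4 and 21.6 to 33.9 CPM in EV, with CD79A at a mean of 28.7 CPM and PAX5 at 0. One library, EV replicate 1, stood apart from the other EV libraries in counts and from all others in its relation to GC content. Its counts differed from those of EV replicates 2 and 3 by a chi-square per gene of 11.04 and 11.13, against 2.60 between those replicates and 3.15 to 5.62 within SCML4. How far it lay from the mean of all libraries ran with the GC content of transcripts at a Spearman coefficient of -0.51 over 14140 genes. The other libraries had coefficients of 0.045 to 0.289. That mean includes EV replicate 1, so the coefficients depend on each other. For the 10 genes, log2 differences that EV replicate 1 moved by over 1.5 times are also given without it. In bulk RNA, fewer cells with a transcript and less transcript per cell cannot be told apart.

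**Figure D1:**
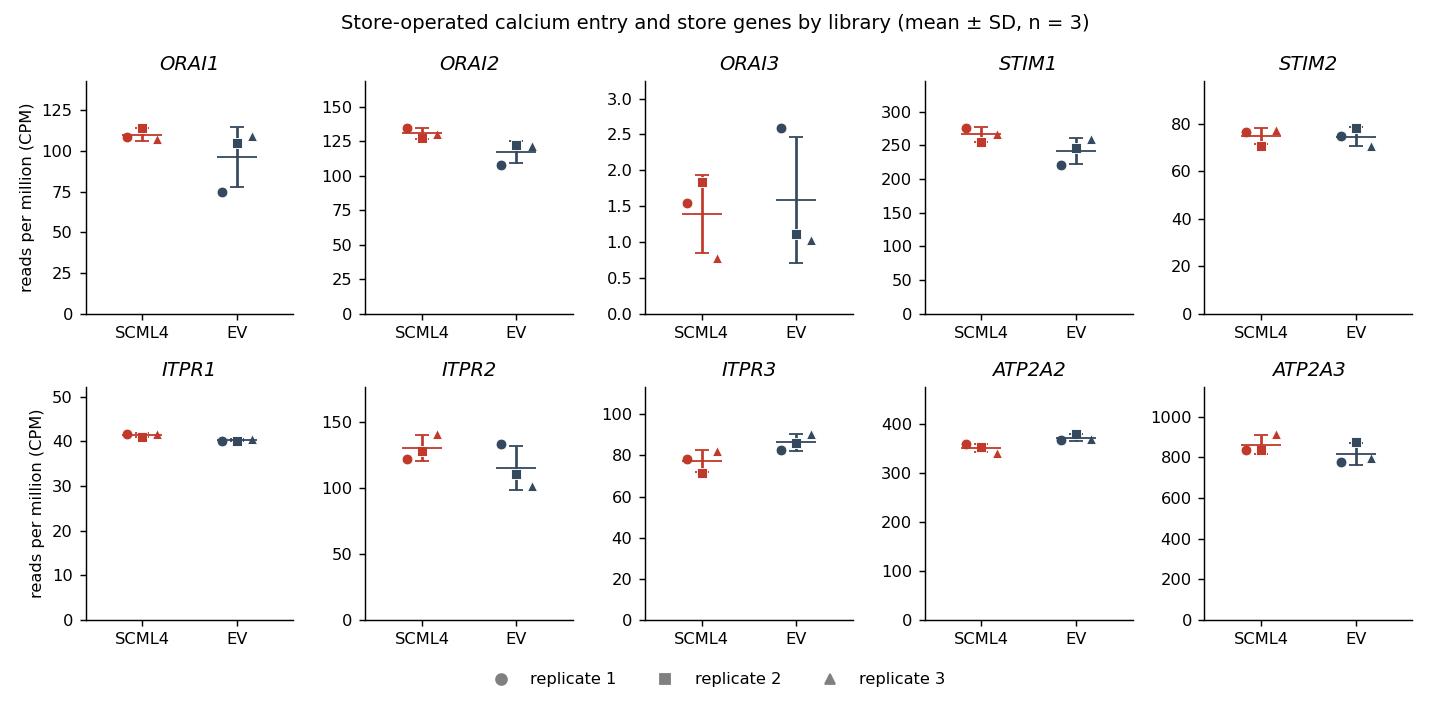
Level of each of the 10 genes in each library, in CPM on a linear axis from 0, with SCML4 left of EV. Markers are replicates 1 to 3 and bars the mean ± SD of 3 libraries. In ORAI1 the EV spread comes from replicate 1 at 74.96 CPM, and in ITPR3 every SCML4 value lies below every EV value.

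The ORAI genes encode the pore of the calcium release-activated channel. ORAI1, the main pore subunit in T cells, whose loss causes immunodeficiency in humans, stood at 109, 114 and 107 CPM in SCML4 cells and at 74.96, 105 and 109 CPM in EV cells. EV replicate 1 was far below the other 5 libraries, which lay within 105 to 114 CPM. ORAI1 averaged 110.1 ± 3.78 CPM in SCML4 and 96.3 ± 18.6 CPM in EV (SD, n = 3 each). That is a log2 difference of 0.21 (SE 0.12, 95% interval -0.05 to 0.47), the highest of the 10. It was 0.04 without EV replicate 1, with an interval of -0.11 to 0.19, and with libraries corrected for GC content and transcript length it was 0.10. Without EV replicate 2 it was 0.28 and without EV replicate 3 it was 0.31. In both fits its unadjusted p in limma-trend was under 0.05, where 6.29% and 6.82% of all genes passed. The adjusted p values in limma-trend were 0.788 and 0.702. The longest ORAI1 transcript has a GC content of 61.7%.

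ORAI2, which joins ORAI1 in mixed channels and is known to limit their current in mouse T cells, stood at 135, 127 and 130.1 CPM in SCML4 cells and at 108, 122 and 121 CPM in EV cells. Every SCML4 value was above every EV value, EV replicate 1 again being lowest. The means were 131 ± 3.88 CPM in SCML4 and 117 ± 7.96 CPM in EV, a ratio of 1.12. The log2 difference was 0.16 (SE 0.08, interval -0.01 to 0.33), and limma-trend gave it an adjusted p of 0.866. It was 0.10 without EV replicate 1, with an interval of -0.04 to 0.25. Of its 10811 exonic bases, 584 lie opposite exons of ALKBH4, and no source used here says whether reads were counted by strand.

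ORAI3, the third paralogue, was close to the detection limit. It had 14, 19 and 7 reads in SCML4 cells and 25, 10 and 10 reads in EV cells, or 1.54, 1.84 and 0.782 CPM in SCML4 and 2.60, 1.12 and 1.03 CPM in EV. The highest and the lowest library came from different groups, and the groups overlapped. The exact 95% counting interval of EV replicate 1 was 1.68 to 3.83 CPM and that of EV replicate 3 was 0.495 to 1.90 CPM. These intervals overlap and cover counting error only. Their overlap does not show that the counts agree. Between the groups ORAI3 differed by -0.09 in log2 with an interval of -0.70 to 0.52, and changes within that interval are not excluded. The difference was 0.18 without EV replicate 1. A non-coding transcript annotated on the same strand covers 46.0% of the exonic bases of ORAI3, so that reads could have been shared between them.

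STIM1, the main sensor of store depletion, stood at 276, 256 and 266 CPM in SCML4 cells and at 221, 246 and 259 CPM in EV cells. The groups overlapped by EV replicate 3, which lay above SCML4 replicate 2. STIM1 averaged 266 ± 10.4 CPM in SCML4 and 242 ± 19.2 CPM in EV. Its log2 difference was 0.14 (SE 0.08, interval -0.03 to 0.31). Without EV replicate 1, in which STIM1 was lowest, it was 0.07 with an interval of -0.06 to 0.21.

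STIM2, a sensor that responds to smaller falls of store calcium, stood at 76.3, 70.8 and 77.4 CPM in SCML4 cells and at 74.6, 78.4 and 70.7 CPM in EV cells. The values of the groups were interleaved. STIM2 differed by 0.0057 in log2 with an interval of -0.18 to 0.19. The longest STIM2 transcript has a GC content of 44.0%, the second lowest of the 10, and EV replicate 1 lay inside the range of the other libraries.

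STIM1 and ORAI2 were both lowest in EV replicate 1 and highest in SCML4 replicate 1, and their promoter sequences are shown for that reason. That choice followed the values and was not planned. ORAI1 and ATP2A3 were also lowest in EV replicate 1, but no RefSeq window was matched for them. The windows are those of RefSeq on GRCh38.p14, strand +, without any base that lies in an annotated exon. The capitals mark a match to GCGNGGGCG on either strand, the site of EGR factors, zinc finger proteins that PMA induces in T cells.

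STIM1, chr11:3855510-3855663: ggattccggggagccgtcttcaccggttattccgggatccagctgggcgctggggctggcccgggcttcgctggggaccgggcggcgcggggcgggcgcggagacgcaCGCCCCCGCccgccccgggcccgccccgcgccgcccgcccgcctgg

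ORAI2, chr7:102433356-102433529: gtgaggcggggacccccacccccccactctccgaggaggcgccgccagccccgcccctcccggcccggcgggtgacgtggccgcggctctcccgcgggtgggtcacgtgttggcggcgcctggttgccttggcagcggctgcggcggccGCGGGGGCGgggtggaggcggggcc

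The match begins 46 bases before the STIM1 start that follows base 3855663, and RefSeq lists other starts of STIM1. In ORAI2 it begins 70 bases before the start. Each match overlaps 1 GC box, GGGCGG on either strand. The stretches printed have a GC content of 82.5% and 82.2%. Among the 250 bases before each of 35116 RefSeq starts, 8.41% hold such a match, and among the 3555 windows with at least 75% GC 38.1% do. RefSeq windows were matched for 7 of the 10 genes. Of their 11 windows 5 held a match, in STIM1, ORAI2 and ATP2A2. These windows are not independent, since a gene can have several starts. The STIM1 windows 3855414-3855663 and 3855453-3855702 overlap and both hold the match printed. The STIM1 window 3854913-3855162 holds a match of its own. Another window of STIM1 and a window of ATP2A2 lacked a match. The windows of STIM2, ORAI3, ITPR1 and ITPR3 held none. These letters are a description of sequence and not of binding.

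The ITPR genes encode the channels through which IP3 releases stored calcium. ITPR2 was higher and ITPR3 lower in SCML4 means, neither past the threshold. ITPR2, the receptor with the highest affinity for IP3, stood at 122, 128 and 141 CPM in SCML4 cells and at 133, 110.4 and 102 CPM in EV cells. The groups overlapped through EV replicate 1 alone, the second highest of the 6. The means were 130.4 ± 9.74 CPM in SCML4 and 115 ± 16.4 CPM in EV. In log2 the difference was 0.19 (SE 0.10, interval -0.03 to 0.40). Leaving out EV replicate 1 gave 0.30, an interval of 0.13 to 0.46 and, in limma-trend, an adjusted p of 0.285, while leaving out EV replicate 3 gave 0.10.

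ITPR3, the receptor with the lowest affinity for IP3, stood at 78.2, 71.5 and 82.2 CPM in SCML4 cells and at 82.4, 86.3 and 90.6 CPM in EV cells. Every SCML4 value was below every EV value, though SCML4 replicate 3 and EV replicate 1 differed by less than the counting error. The means were 77.3 ± 5.41 CPM in SCML4 and 86.4 ± 4.08 CPM in EV. In log2 the difference was -0.16 (SE 0.09, interval -0.35 to 0.03). Leaving out EV replicate 1 gave -0.19, an interval of -0.36 to -0.02 and, in limma-trend, an adjusted p of 0.674, while leaving out SCML4 replicate 2 gave -0.11. With all libraries corrected for GC content and length, limma-trend gave differences of 0.24 in ITPR2 and -0.21 in ITPR3, with adjusted p values of 0.781 and 0.814. In that correction, as without EV replicate 1, these were the 2 genes of the 10 with an unadjusted p under 0.05, where 5.88% and 6.69% of all genes passed. The same held with library weights in limma-voom (8.49% of all genes) and limma-trend (9.92%). It also held in limma-trend with replicate block and GC correction (4.92%), and with GC correction without EV replicate 1 (7.04%), chosen after seeing the data. There limma-trend gave ITPR2 its lowest adjusted p over all settings, 0.164.

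ITPR1, the receptor best known from neurons, varied least between libraries. It stood at 41.7, 40.9 and 41.5 CPM in SCML4 cells and at 40.2, 40.1 and 40.5 CPM in EV cells. The groups did not overlap, but the means, 41.4 ± 0.413 CPM in SCML4 and 40.3 ± 0.193 CPM in EV, differed by less than the 2.08 CPM expected of a library from counting alone. It differed by 0.04 in log2 with an interval of -0.16 to 0.24.

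The pumps that refill the store were the most abundant of the 10 in reads. ATP2A2, which encodes SERCA2, the pump found in most tissues, stood at 358, 353 and 341 CPM in SCML4 cells and at 366, 379.8 and 368 CPM in EV cells. Every SCML4 value was below every EV value. The means were 351 ± 8.56 CPM in SCML4 and 371 ± 7.29 CPM in EV, a ratio of 0.945. The log2 difference was -0.08 (SE 0.07, interval -0.23 to 0.07), with 0.901 as its adjusted p in limma-trend, and it was -0.09 without EV replicate 1.

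ATP2A3, which encodes SERCA3, a pump typical of blood cells, stood at 835, 836 and 916 CPM in SCML4 cells and at 777, 878 and 796 CPM in EV cells. The groups overlapped, with EV replicate 2 above both SCML4 replicates 1 and 2. ATP2A3 averaged 863 ± 46.6 CPM in SCML4 and 817 ± 53.6 CPM in EV. The log2 difference was 0.08 with an interval of -0.09 to 0.25, and it was -0.01 once libraries were corrected for GC content and length. It was 0.04 without EV replicate 1 and 0.03 without SCML4 replicate 3.

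**Figure D2:**
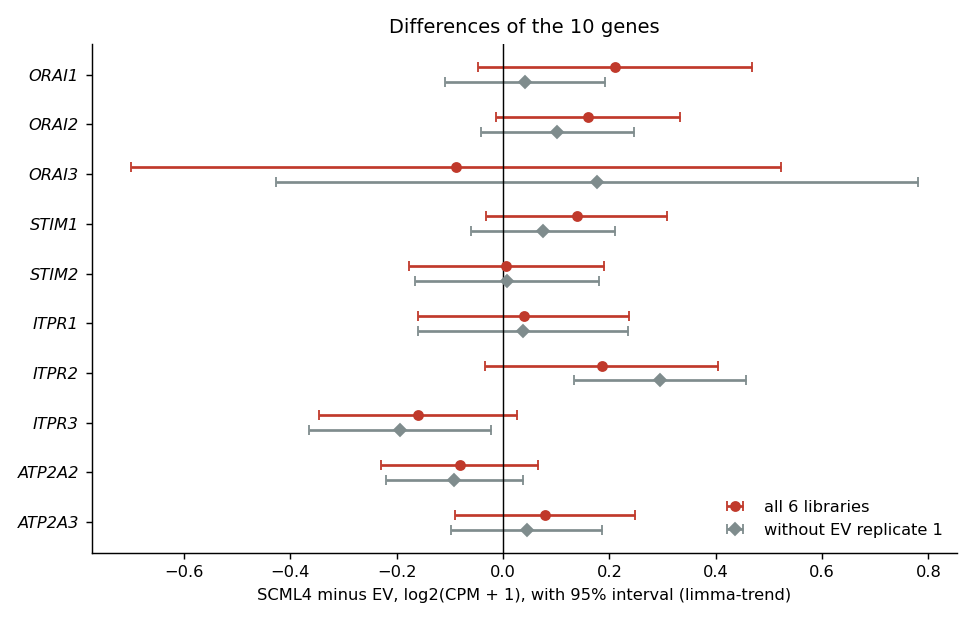
Difference of SCML4 minus EV in log2(CPM + 1) for each gene, with 95% intervals from limma-trend, over all 6 libraries and without EV replicate 1. With all libraries every interval spans 0, and without EV replicate 1 those of ITPR2 (0.13 to 0.46) and ITPR3 (-0.36 to -0.02) do not.

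Exact two-sided permutation tests of CPM, 3 against 3 libraries, cannot go below p = 0.1. That value was reached by ORAI2, ITPR1, ITPR3 and ATP2A2, and the other genes of the set lay between 0.2 and 0.9. The 95% intervals of the fit had arms of 0.15 to 0.61 in log2, longest in ORAI3. A difference smaller than its arm cannot be told from none by its interval. Calls rested on p-values adjusted over all genes tested, so the arms are not the size at which a gene would be called.

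Levels of different genes were compared per kilobase of exonic length in GENCODE 29, since the lengths behind the deposited FPKM are not those of the genes. ATP2A3 was highest, at 177 ± 9.54 CPM per kb in SCML4 and 167 ± 10.97 in EV. ORAI1 came next, at 73.6 ± 2.53 CPM per kb in SCML4 and 64.4 ± 12.5 in EV. ATP2A2 followed at 61.9 ± 1.51 and STIM1 at 58.1 ± 2.28 CPM per kb in SCML4, against 65.5 ± 1.29 and 52.8 ± 4.19 in EV. The ranges of ORAI1, ATP2A2 and STIM1 over the 6 libraries overlapped with their neighbours, so their order is not settled. STIM2 stood well below them at 14.3 ± 0.674 CPM per kb in SCML4 and 14.2 ± 0.737 in EV. ORAI2, ITPR2 and ITPR3 ranged from 7.24 to 12.5 CPM per kb, each overlapping its neighbour. ITPR1 lay apart at 3.25 to 3.38 CPM per kb, and ORAI3 was lowest at 0.317 to 1.05. The place of ORAI2 depends on the length used, since it has 10811 exonic and 762 coding bases. Per kilobase of coding length ORAI2 was the second of the 10, at 172 ± 5.09 in SCML4 and 154 ± 10.4 in EV.

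Within each family the share of reads taken by each paralogue does not depend on the scaling of libraries. Of the reads of the ITPR family, ITPR2 took 50.5%, 53.2% and 53.3% in SCML4 cells and 52.1%, 46.6% and 43.7% in EV cells. Its share averaged 52.3% ± 1.59 in SCML4 and 47.4% ± 4.28 in EV, a difference of 4.87 percentage points. ITPR3 took 32.3%, 29.8% and 31.0% in SCML4 cells and 32.2%, 36.4% and 38.9% in EV cells, a difference of -4.83 points. Both shares overlapped between the groups through EV replicate 1, with an exact two-sided permutation p of 0.2 and an adjusted p of 0.6 over the 9 ratios compared. Without EV replicate 1 the differences were 7.19 and -6.66 points, and without EV replicate 3 they were 2.97 and -3.29 points. ITPR1 held 15.7% to 17.4% in all libraries.

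Of the SERCA reads, ATP2A2 took 30.0%, 29.7% and 27.1% in SCML4 cells and 32.04%, 30.2% and 31.6% in EV cells. The groups did not overlap, the difference was -2.34 points, and the exact permutation p was 0.1 and the adjusted p 0.6. With libraries corrected for GC content and length it was -0.952 points, and without SCML4 replicate 3 it was -1.44 points. STIM1 took 78.1% ± 0.486 of the STIM reads in SCML4 and 76.4% ± 1.95 in EV, a difference of 1.65 points that was 0.841 without EV replicate 1 and 2.74 without EV replicate 3. ORAI2 took 54.0% ± 1.51 of the ORAI reads in SCML4 and 54.7% ± 3.07 in EV, and ORAI3 took 0.328% to 1.40% in all libraries. The 3 ORAI genes together had 245, 243 and 238 CPM in SCML4 cells and 185, 228 and 231 CPM in EV cells, with EV replicate 1 lowest and no overlap. There were 1.41 ± 0.0582 STIM reads per ORAI read in SCML4 and 1.48 ± 0.0990 in EV, with an exact permutation p of 0.6. That difference of -0.0733 was -0.0161 without EV replicate 1, which stood at 1.596 where both other EV libraries stood at 1.42.

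**Figure D3:**
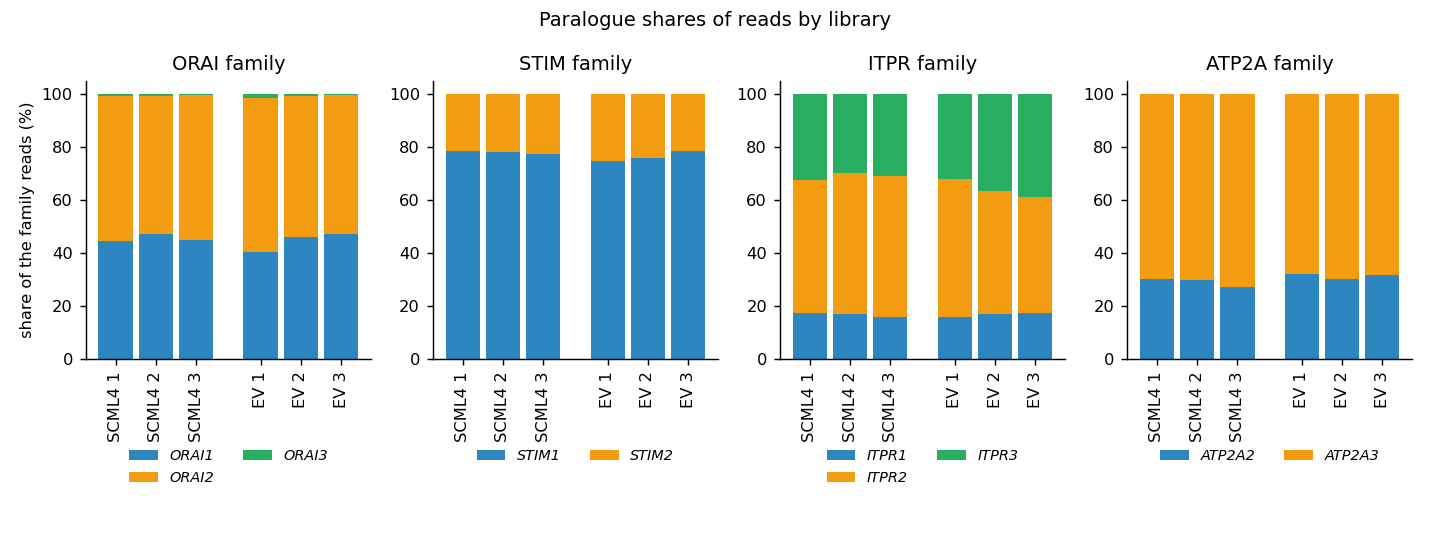
Share of the reads of each family taken by each paralogue, in percent, for SCML4 replicates 1 to 3 and EV replicates 1 to 3. In the ITPR family, ITPR3 takes 36.4% and 38.9% in EV replicates 2 and 3 and 29.8% to 32.3% in the other 4 libraries.

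The 10 genes differed in how far EV replicate 1 lay from the other libraries. It was the lowest library for ORAI1, ORAI2, STIM1 and ATP2A3 and the highest for ORAI3. Its difference from the mean of the other 5 libraries in log2(CPM + 1) was -0.53 for ORAI1, -0.23 for ORAI2 and -0.24 for STIM1. ITPR2, with a GC content of 42.1%, lay 0.15 above. Among all genes tested, the median deviation of this library was 0.15 at a GC content near 40% and -0.20 near 60%. Over the 10 genes the Spearman coefficient between GC content and deviation was -0.35. Over 9 without ORAI3, which at a GC content of 59.4% deviated by 0.69, it was -0.60. That exclusion was not planned. ATP2A3, with the highest GC content at 63.4%, deviated by -0.13, and ITPR3, at 59.1%, by 0.02.

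**Figure D4:**
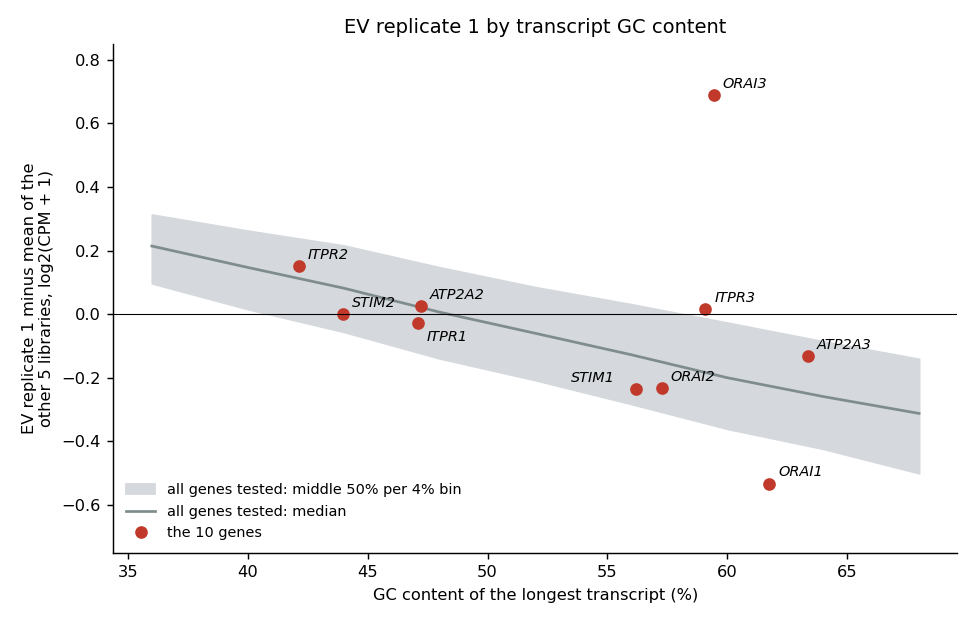
Position of EV replicate 1 relative to the mean of the other 5 libraries, in log2(CPM + 1), against the GC content of the longest transcript in percent. Points are the 10 genes, the line the median of all genes tested in bins of GC content and the band their middle 50%. ORAI1 lies below the band at -0.53, and ORAI3, with 7 to 25 reads, above it at 0.69.

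Other genes of calcium handling were followed in 8 lists by role, 135 genes in all, of which 97 passed the filter. In limma-trend 0 of them were called, 4 had an unadjusted p under 0.05 (4.12%, against 5.27% of all genes), and 47 differences were positive and 50 negative. In 15 of the 97 (15.5%) the groups did not overlap, against 11.6% of all genes. A limma-voom fit of reads called 1 gene of all, SCML4.

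Among the genes that regulate the STIM and ORAI pair, 16 of 20 were tested, 8 with positive and 8 with negative differences and a median of 0.00056 in log2. The most abundant were the septin SEPTIN2, with 413 to 537 CPM, and the membrane tether ESYT2, with 398 to 430 CPM. SARAF, a negative regulator of store-operated entry, came next with 145 to 165 CPM. STX3, a syntaxin, stood at 23.0 ± 2.67 CPM in SCML4 and 19.4 ± 1.97 CPM in EV, a log2 difference of 0.23. NAPA, the SNAP protein that assists ORAI1, stood at 22.6 ± 0.654 CPM in SCML4 and 19.7 ± 1.83 CPM in EV, a log2 difference of 0.19. Among release channels and their modulators 14 of 19 were tested, 9 positive and 5 negative, with a median of 0.04. TMBIM6, described as a calcium leak channel of the reticulum, stood at 544 ± 15.7 CPM in SCML4 and 493 ± 10.5 CPM in EV, and ERLIN2, which takes part in removing active IP3 receptors, at 66.5 ± 0.770 CPM in SCML4 and 60.2 ± 2.41 CPM in EV. In both genes the groups did not overlap, and both log2 differences were 0.14, with adjusted p at 0.866 in limma-trend. The IP3 receptor partner AHCYL1 had 156 to 170.2 CPM and TESPA1, an ITPR-binding protein of thymocytes, 134 to 161 CPM. The ryanodine receptors RYR1, RYR2 and RYR3, named after their values were seen, all stayed under the mean of 10 reads.

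Among the genes that make and remove IP3, 13 of 16 were tested, 9 positive and 4 negative, with a median of 0.09. PLCG1, the phospholipase that the T cell receptor activates, had 190.0 to 199.99 CPM. ITPKB, the kinase that turns IP3 into IP4, stood at 94.5 ± 3.71 CPM in SCML4 and 82.5 ± 5.16 CPM in EV, with no overlap and a log2 difference of 0.19. PLCB1 stood at 23.9 ± 2.47 CPM in SCML4 and 19.4 ± 1.38 CPM in EV, also with no overlap and a log2 difference of 0.28. Their adjusted p values in limma-trend were both 0.866. IMPA1, an inositol monophosphatase, had 51.3 to 62.8 CPM.

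Among store filling genes and luminal buffers 13 of 15 were tested, 5 positive and 8 negative, with a median of -0.0053. CALR, encoding the calcium-binding chaperone calreticulin, stood at 598 ± 24.7 CPM in SCML4 and 515 ± 40.7 CPM in EV, with no overlap and a log2 difference of 0.22, for which limma-trend gave 0.866 as adjusted p. SELENON, a selenoprotein of the reticulum that acts on SERCA2, stood at 34.7 ± 5.21 CPM in SCML4 and 27.3 ± 4.14 CPM in EV, a log2 difference of 0.33 that was 0.22 without EV replicate 2. CANX, encoding calnexin, had 690.4 to 874 CPM and HSPA5, encoding the chaperone BiP, 381 to 444 CPM.

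Of the plasma membrane and Golgi pumps and exchangers 5 of 13 were tested, 2 positive and 3 negative, with a median of -0.02 that was 0.04 without EV replicate 1. ATP2B4, a plasma membrane pump, stood at 440 ± 31.5 CPM in SCML4 and 418 ± 15.1 CPM in EV, a log2 difference of 0.07 that was 0.015 without SCML4 replicate 3. ATP2C1, the Golgi pump, stood at 76.3 ± 1.76 CPM in SCML4 and 81.5 ± 10.3 CPM in EV, a log2 difference of -0.09 that was -0.0039 without EV replicate 1 and -0.19 without EV replicate 3. TMEM165, a Golgi transporter, had 80.3 to 95.7 CPM. All 13 genes of mitochondrial calcium were tested, 4 positive and 9 negative, with a median of -0.03. Without EV replicate 1 there were 6 positive and the median was -0.0053, and without SCML4 replicate 3 it was 0.03. The outer membrane channel VDAC1 had 222 to 253 CPM, the inner membrane protein LETM1 185 to 213 CPM and the uniporter regulator MCUR1 122 to 142 CPM. SLC8B1, the mitochondrial sodium-calcium exchanger, stood at 47.5 ± 4.19 CPM in SCML4 and 42.1 ± 1.82 CPM in EV, with no overlap. Its log2 difference was 0.17 (0.10 without SCML4 replicate 3). MICU3, a uniporter regulator, stood at 10.5 ± 1.66 CPM in SCML4 and 13.6 ± 4.66 CPM in EV, a log2 difference of -0.31 (-0.06 without EV replicate 1).

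Of other plasma membrane channels 14 of 27 were tested, 6 positive and 8 negative, with a median of -0.01. PIEZO1, a mechanically gated channel, had 412 to 440.2 CPM, TRPM7, a channel fused to a kinase, 127 to 145 CPM and the calcium channel subunit CACNB3 33.7 to 36.2 CPM. In TRPM7 the groups did not overlap, SCML4 being lower. CACNB2 stood at 7.26 ± 0.278 CPM in SCML4 and 9.47 ± 1.06 CPM in EV, with no overlap and a log2 difference of -0.34, and CACNA1C at 10.2 ± 1.36 CPM in SCML4 and 8.09 ± 1.82 CPM in EV, one of 0.32 that was 0.14 without EV replicate 3. Of calmodulin and its kinases 9 of 12 were tested, 4 positive and 5 negative, with a median of -0.04 that was 0.0062 without EV replicate 1. CALM3 stood at 533 ± 15.4 CPM in SCML4 and 484 ± 76.3 CPM in EV, a log2 difference of 0.15 that was 0.02 without EV replicate 1, and CALM2 at 192 ± 17.0 CPM in SCML4 and 215 ± 26.8 CPM in EV, one of -0.15 (-0.05 without it). The kinase CAMK4, found in T cells and neurons, had 404 to 493 CPM.

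**Figure D5:**
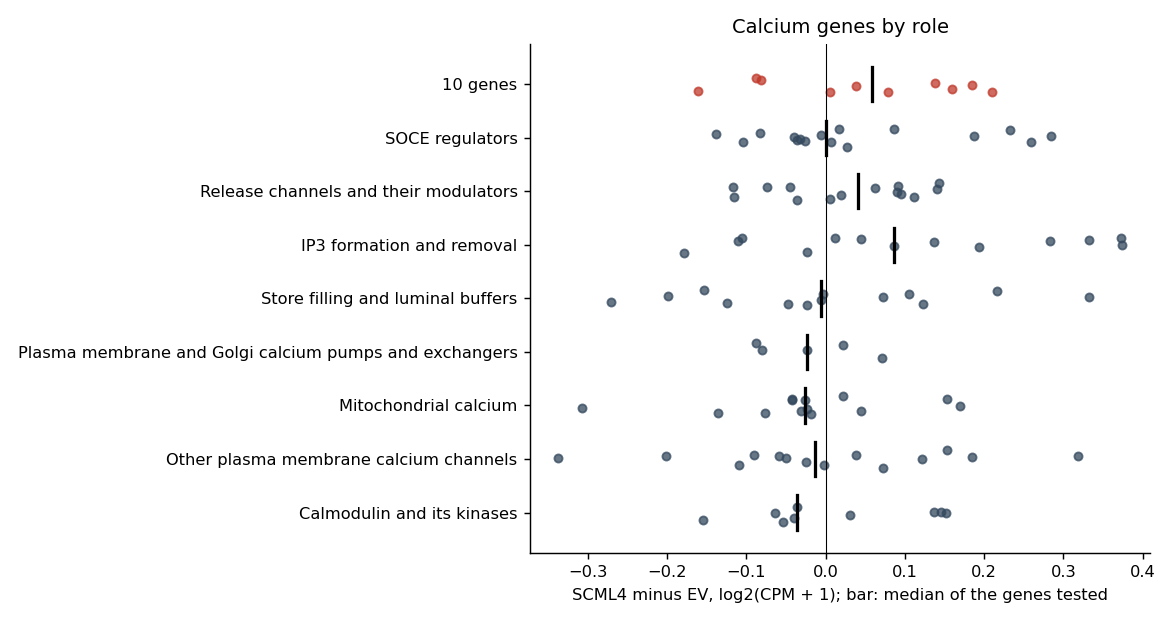
Difference of SCML4 minus EV in log2(CPM + 1) for each gene tested, by role, with the 10 genes of store-operated entry and stores in the top row. Each point is a gene and each bar the median of its row, from -0.04 (calmodulin and its kinases) to 0.09 (IP3 formation and removal).

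The genes whose pattern over the 6 libraries was most like that of ORAI1, among 11406 others averaging 50 reads or more, were NAPRT, GPAA1 and AARS2, with Pearson coefficients of 0.996, 0.992 and 0.991 in log2(CPM + 1). Over the 5 libraries without EV replicate 1 these were 0.902, 0.810 and 0.709. For STIM1 they were FAM72A, TUBB4B and TRIR, with coefficients of 0.997, 0.993 and 0.992, which were 0.993, 0.986 and 0.967 without that library. The part of depth or GC content in this likeness was not tested. The genes were picked as the highest of all, so the coefficients are a description without a test.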

How the data were processed

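RNA was isolated in TRIzol and made into libraries with a SMARTer kit for mRNA, per the labels' protocols. FastQC, STAR, SAMtools and the build hg19 are named without versions, per the submitters' processing notes. No source used here gives the counting tool, the annotation or the gene lengths. The values the authors deposited are FPKM, reads per kilobase of a gene scaled by the reads of the library, in 6 library columns per the file headers.

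Library totals and whole reads were recovered from the FPKM steps, within 0.002 of a read, for 100% of the 23897 genes above 0; a factor shared by all 6 counts of a gene goes unseen. The lengths implied by the FPKM ran with GENCODE 29 exonic lengths at a Spearman coefficient of 0.0034 over 14140 genes, so pseudocount, filter and trend were set on CPM. GENCODE 29 is on GRCh38 and gave lengths, GC content and overlaps only. Totals ranged from 8953671 to 10336597 reads; counting intervals cover counting error only, and no molecular identifiers are described.

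The main test was limma-trend (limma 3.58.1, R 4.3.3) on log2(CPM + 1), SCML4 minus EV, with Benjamini-Hochberg adjustment over all genes tested. Scripts were tested on simulated data. The 10 genes and the lists were chosen with earlier results of these data known. Named by rule were the 10 genes, SCML4, the 3 most abundant and the 2 genes of smallest p in each list, and the 3 genes most like ORAI1 and STIM1. A gene that the rule names is not reported here. Alternatives were other pseudocounts, filters, scalings, tests, weights, a replicate block, a GC and length correction and leaving out each library. Replicates of a group were compared, and no library was a duplicate.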

Additional observations from a re-analysis of the deposited data

How the results depend on the processing

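No gene of the 10 was called under any of the 23 alternatives run, and the median of their differences stayed between 0.03 and 0.09 in log2. ORAI1, ORAI2, STIM1, ITPR1, ITPR2, ITPR3 and ATP2A2 kept their direction in all of them. The cause of the changes listed next was not tested. The difference of ORAI3 was 0.31 in limma-voom and 0.22 in limma-trend with library weights, 0.16 with GC correction without EV replicate 1, a setting chosen after seeing the data, and -0.23 to 0.18 with 1 library left out. That of STIM2 was -0.021 and -0.029 in the same weighted fits, -0.00023 after quantile normalization, and -0.032 to 0.045 with 1 library left out. That of ATP2A3 was -0.010 after GC and length correction, with or without the replicate block, and that of CALM3 -0.0012 after GC correction without EV replicate 1.

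Over all genes the count of calls was 1. It was 0 on deposited FPKM, where limma-trend gave SCML4 1.88 in log2 with 0.0619 as its adjusted p, and 14 and 19 with library weights in limma-voom and limma-trend. It was 2 with median-ratio size factors, 3 after quantile normalization, 3 after GC and length correction, 14 when EV replicate 1 was also left out, and 1 to 14 with 1 library left out, the highest without EV replicate 1. With the replicate number as a block it was 2, and 6 with the block and GC correction. Same-numbered libraries' deviations from their group mean correlated at -0.080, -0.197 and -0.054 over 11407 genes, and differently numbered ones at -0.138 to 0.227. Deviations from a mean of 3 libraries depend on each other, so this cannot decide whether the numbers pair the libraries.

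The share of ORAI1 in ORAI reads differed by -0.179 points after GC correction and by -1.10 to 2.29 with 1 library left out, that of ORAI2 by 0.427 and -1.92 to 0.998, that of ORAI3 by -0.373 to 0.103 with 1 left out, and that of ITPR1 in ITPR reads by 0.0435 and -0.529 to 0.447. List medians with 1 library left out ran from -0.0041 to 0.057 for release channels, 0.035 to 0.19 for IP3 genes, -0.033 to 0.054 for store filling, -0.020 to 0.046 for other channels, -0.091 to 0.035 for pumps and exchangers, -0.059 to 0.032 for mitochondrial calcium, -0.0092 to 0.021 for SOCE regulators and -0.037 to 0.013 for calmodulin and its kinases. The median of the IP3 genes was 0.0034 after GC correction, with or without the block. Of the 10 ranks of levels, 6 were kept per kilobase of coding length and 3 with no length. Depth limits ORAI3, with 85 reads in all.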

Other observations

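The deposited FPKM of these genes imply lengths that are whole numbers of bases and not those of the genes. The implied length was 297 bases for ATP2A3, 401 for ITPR2, 569 for ITPR3, 642 for ITPR1 and 18606 for STIM1, against exonic lengths of 4884, 11461, 9870, 12334 and 4585 bases. ITPR2 was therefore listed at 305, 318 and 352 FPKM in SCML4 cells and 332, 275 and 253 FPKM in EV cells, and STIM1 at 14.9, 13.7 and 14.3 FPKM in SCML4 cells and 11.9, 13.2 and 13.9 FPKM in EV cells. By reads the order of these genes is the other way round, with 983 to 1320 reads per library for ITPR2 and 2131 to 2642 for STIM1. Ratios within a gene are not touched by this.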
